A study of Mus musculus with 24 samples.

Results

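Long intergenic noncoding RNAs (lincRNAs) are long transcripts that lie between protein-coding genes and carry no annotated coding frame. Here they were taken from the gene table that the authors deposited for white fat of mice, as the rows whose biotype is lincRNA and whose mean over the 24 libraries was at least 1 FPKM (fragments scaled to the length of the gene model and to the size of the library, a level per length). H19 and Meg3, which the table also lists as lincRNAs, were left out by name. The rule gave 181 lincRNAs of 5559 lincRNA rows (3.26%) and of 54532 genes in the table. They were chosen by their mean FPKM over all libraries, so that their levels are a description and are not tested. The 3 just inside the limit were Gm11734 at 1.01, Gm38563 at 1.01 and Gm13373 at 1.003 FPKM, and the 3 just outside were 4833418N02Rik, Gm44053 and 2810032G03Rik, at 0.9999, 0.997 and 0.997 FPKM. Of the lincRNA rows left out, 2607 were at 0 in all 24 libraries.

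LincRNAs act as RNA. Some build nuclear bodies, some hold or release proteins, some are the precursors from which microRNAs or small nucleolar RNAs are cut, and for many the act of transcription affects a neighbouring gene or no function is known. They are often present in few cell types, so that in a tissue such as fat, where adipocytes share the space with macrophages, mesothelium, vessels and nerves, a lincRNA level can follow the mix of cells. In bulk tissue fewer cells of a type and less RNA per cell cannot be told apart.

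The 24 libraries came from C57BL6 mice. Each mouse carried an adeno-associated viral vector (AAV), either one for irisin, a secreted peptide cut from the product of Fndc5, or one for GFP, a fluorescent protein that served as control. The mice ate chow or a high-fat diet (HFD) for 18 weeks, and RNA was taken from inguinal fat (iWAT), which lies under the skin, or epididymal fat (eWAT), which lies in the abdomen, with 8 groups of 3 libraries by depot, vector and diet. No group is free of virus, and age and sex are not stated in the labels used here. Whether each library is from its own mouse is not given in the labels, and p-values then measure only the spread between these libraries, which may be technical. Depot markers separated the depots as labelled. Tbx15, a developmental factor of subcutaneous fat, was at 2.88 to 14.2 FPKM in iWAT and at most 0.0896 FPKM in eWAT. Wt1, a factor of visceral fat and mesothelium, was at 1.20 to 11.8 FPKM in eWAT and at most 0.0204 FPKM in iWAT.

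Read numbers recovered from the deposited values came to between 14.2 and 19.7 M for a library, with a median of 16.4 M, of which the 181 lincRNAs held 0.291% to 0.590%. In a gene of 2000 bases 1 FPKM stood for 26.7 to 39.3 reads, so that the 91 lincRNAs with a mean of 1 to 2 FPKM rest on few reads. Some libraries stood apart by markers of other tissues: iWAT GFP HFD 1 and eWAT GFP chow 1 in 4 B cell genes (summed 361 and 107 FPKM, against at most 18.97 in the others), iWAT irisin chow 3 in 5 skeletal muscle genes (3234 FPKM) and eWAT GFP HFD 3 in 4 epididymis genes (392 FPKM). Among the HFD libraries of eWAT, irisin HFD 2 had the fewest macrophage transcripts (5 markers, 166 FPKM, against 587 to 1011 in the other 5) and the most adipocyte transcripts (5 markers, 7020 FPKM, against 2392 to 3316). Counts for diet and depot are given with and without the 4 libraries rich in B cell, muscle or epididymis transcripts. Counts without eWAT irisin HFD 2 are given for diet in eWAT of irisin mice. They are also given for the difference of the HFD effect between depots, but not for depot on HFD.

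The sequences that best show what these transcripts carry are the microRNAs embedded in them and the promoter shared with a neighbour. Of the 181, 8 span a microRNA hairpin and 7 span a small nucleolar RNA gene. Mir142hg is the host of miR-142a, a microRNA of blood cells, Mir17hg hosts the miR-17-92 cluster, known for its part in cell proliferation, and E130102H24Rik spans miR-101a. Below are mature sequences from RefSeq (GRCm38.p6), 5′ to 3′, with the seed, bases 2 to 8, in capitals. The microRNAs themselves were not measured, only their host transcripts.
miR-142a-5p (chr11:87756867-87756887, plus strand): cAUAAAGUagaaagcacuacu
miR-142a-3p (chr11:87756903-87756925, plus strand): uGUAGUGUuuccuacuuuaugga
miR-17-5p (chr14:115043684-115043706, plus strand): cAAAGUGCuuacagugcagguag
miR-20a-5p (chr14:115044183-115044205, plus strand): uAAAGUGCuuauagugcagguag
miR-18a-5p (chr14:115043867-115043889, plus strand): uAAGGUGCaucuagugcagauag
miR-19a-3p (chr14:115044048-115044070, plus strand): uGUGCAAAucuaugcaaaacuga
miR-19b-3p (chr14:115044358-115044380, plus strand): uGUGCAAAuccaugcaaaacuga
miR-92a-3p (chr14:115044476-115044496, plus strand): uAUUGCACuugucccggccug
miR-101a-3p (chr4:101346957-101346977, minus strand): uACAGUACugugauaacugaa
miR-17-5p and miR-20a-5p share the seed AAAGUGC, and miR-19a-3p and miR-19b-3p share the seed GUGCAAA. The seeds of miR-18a-5p, miR-92a-3p, miR-101a-3p and the arms of miR-142a each occur once in this set.

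RefSeq promoters, here the 250 bases before to 50 bases after a start, were held for 89 of the 181 lincRNAs, for 64 of them with a start within 100 bases of the deposited one. The search covered 5 motifs on both strands: TATAAA (the TATA box), CCAAT (the CCAAT box), GAGGAA (a core of PU.1 sites), TTGCNNAA (a core of C/EBP sites) and AGGTCA (a nuclear receptor half-site). They were present in 12.4%, 37.1%, 33.7%, 12.4% and 18.0% of the 89 promoters and in 14.2%, 37.9%, 28.3%, 10.8% and 16.0% of 27025 RefSeq promoters. The promoter of 2610016A17Rik is shown because the gene starts 167 bases from Dmrt2, a transcription factor gene on the other strand, and both fell on HFD in eWAT of GFP mice. It holds CCAAT at 2 places, both on the opposite strand (written as ATTGG, in capitals), and none of the other motifs. The promoter of Gm5627 is shown because Gm5627 was among the few lincRNAs that rose on HFD in both depots, and none of the 5 motifs lies in it.
2610016A17Rik (chr19:25672190-25672489, minus strand): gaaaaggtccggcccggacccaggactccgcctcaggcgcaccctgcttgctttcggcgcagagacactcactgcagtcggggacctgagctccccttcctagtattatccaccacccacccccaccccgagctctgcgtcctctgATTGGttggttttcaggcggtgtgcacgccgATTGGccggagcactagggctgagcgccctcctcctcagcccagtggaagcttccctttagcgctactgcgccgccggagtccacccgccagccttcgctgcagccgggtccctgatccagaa
Gm5627 (chr9:102739398-102739697, plus strand): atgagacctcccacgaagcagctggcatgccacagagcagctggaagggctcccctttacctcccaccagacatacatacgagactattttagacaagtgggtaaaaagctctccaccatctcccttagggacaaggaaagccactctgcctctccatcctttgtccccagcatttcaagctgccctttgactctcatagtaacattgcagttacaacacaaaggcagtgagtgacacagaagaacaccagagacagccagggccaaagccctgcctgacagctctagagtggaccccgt

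Levels were low and uneven. Of the 181, 16 had a mean of 10 FPKM or more, 74 of 2 to 10 and 91 of 1 to 2, with a median of 1.995 FPKM, against a median of 7.10 FPKM for the 11544 protein-coding genes that passed the same limit. The 10 most abundant held 47.4% of the summed level. In 96 lincRNAs all 8 group means reached 1 FPKM, in 73 they did so in 4 to 7 groups and in 12 in 1 to 3 groups. These 12, Gm43351, Gm5547, AU022793, Gm19951, Gm34973, Lsmem2, Gm27202, AI839979, AC165953.2, Gm16907, Gm11734 and Gm13373, passed the limit only through the groups where they were high and so had to differ between groups. Their differences are given as a description, with no test, and counts are given with and without them. Gm48832 met the limit only through its chow groups, and its diet differences are also given with no test. It stays in the counts. By name 100 were Gm genes and 48 RIKEN cDNAs, and none lay on the X chromosome and 1 (Gm29650) on the Y chromosome.

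**Figure D1:**
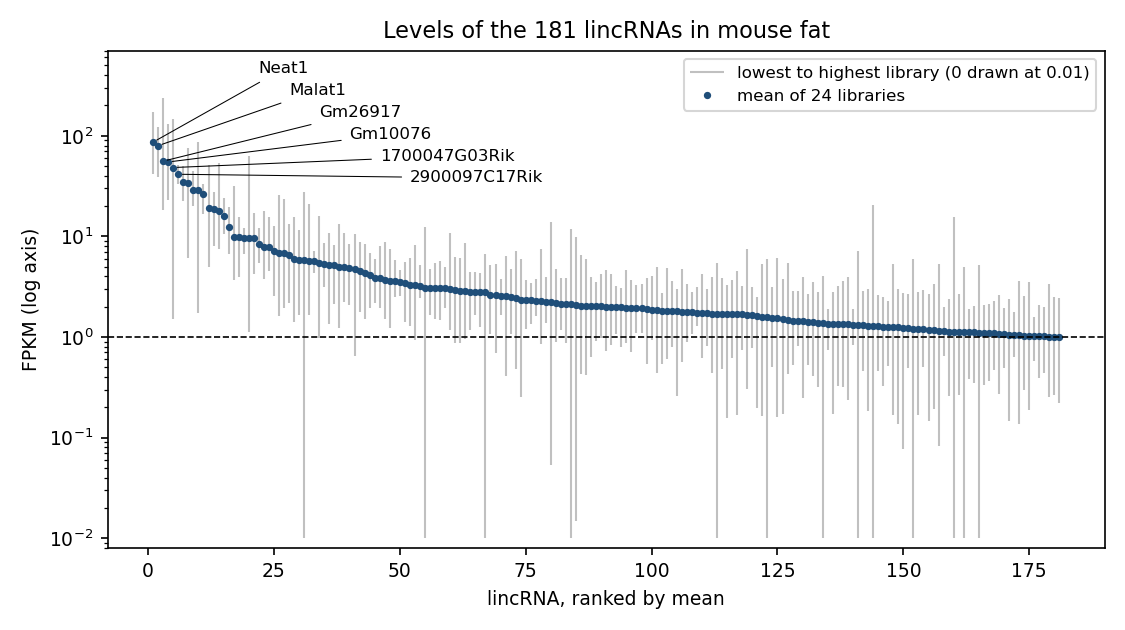
Level of each of the 181 lincRNAs in FPKM on a log axis, ranked by the mean of 24 libraries (points), with grey lines from the lowest to the highest library. Neat1 led with 86.4 FPKM, the dashed line is the limit of 1 FPKM, and 13 lincRNAs were at 0 in at least 1 library.

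Neat1 (ENSMUSG00000092274, chr19:5824708-5845478), the scaffold RNA of paraspeckles, had the highest mean, 86.4 FPKM. On chow Neat1 stood at 98.5, 80.9 and 172 FPKM in iWAT of GFP mice, 129, 69.7 and 122 in iWAT of irisin mice, 135, 77.9 and 69.5 in eWAT of GFP mice and 118, 138 and 155 in eWAT of irisin mice. On HFD it stood at 55.6, 46.8 and 70.03, at 75.1, 116 and 55.8, at 49.1, 46.0 and 41.3 and at 41.3, 45.3 and 65.6 FPKM in the same order. All 6 HFD libraries of eWAT were below all 6 chow libraries of eWAT, while in iWAT of irisin mice the diets overlapped. In eWAT Neat1 fell by 0.98 ± 0.25 on the log2 scale in GFP mice and by 1.44 ± 0.25 in irisin mice (SE, n = 3 libraries a group; limma, adjusted p = 0.0141 and 0.00495). In iWAT the differences were −0.97 ± 0.35 and −0.39 ± 0.35 (limma, adjusted p = 0.168 and 0.498). Among the genes most like Neat1 over the 24 libraries, by Pearson r of log2 values, were Pabpn1 (0.933) and Vamp2 (0.933). The table gives 1 row for Neat1 and does not separate its short and long isoforms. The fall in eWAT can therefore not be assigned to either isoform.

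Malat1 (ENSMUSG00000092341, chr19:5795690-5802672), a nuclear speckle RNA and the neighbour of Neat1 on the chromosome, had a mean of 79.7 FPKM and ranged from 38.6 to 121 FPKM over the libraries. It passed the test in none of the 11 comparisons. In eWAT of GFP mice it was at 71.9, 62.1 and 74.5 FPKM on chow, against 93.5, 93.8 and 101 FPKM on HFD, a difference of 0.47 ± 0.19 that missed the threshold (limma, adjusted p = 0.0888), in the direction opposite to Neat1. The genes most like Malat1 were Tet2 (r = 0.873), Ogt (0.848) and Bclaf1 (0.837), of which Tet2 oxidises methylated DNA and Ogt attaches sugar groups to proteins.

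The steadiest lincRNA was 2900097C17Rik (ENSMUSG00000102869, chr2:156388065-156392979), the mouse Norad, which binds Pumilio proteins. Its mean was 41.4 FPKM and its coefficient of variation over the 24 libraries 11.6%, the lowest of the 181, whose median was 45.9%. Its group means ran from 37.0 ± 3.43 FPKM in iWAT of GFP mice on HFD to 45.6 ± 4.78 FPKM in eWAT of GFP mice on HFD (SD, n = 3), a ratio of 1.23. The transcript has 11 copies of TGTANATA, the Pumilio element, in 4915 bases, or 2.24 per 1000 bases, whereas 152 of the 181 had none in their longest transcript. A stretch of 120 bases with a pair of them, in capitals, is shown from the GENCODE transcript (bases 1517 to 1636).
2900097C17Rik (GRCm38, chr2:156391344-156391463, minus strand): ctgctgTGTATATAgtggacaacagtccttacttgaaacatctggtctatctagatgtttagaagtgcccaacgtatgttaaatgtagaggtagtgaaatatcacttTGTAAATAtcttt
Over 51.6% of this transcript a second gene, Gm7292, is 99.2% identical, so that part of its reads could be split between the genes.

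Diet moved many lincRNAs in eWAT, and mostly down. In eWAT of GFP mice 62 of 179 tested lincRNAs passed the test (34.6%, against 26.5% of all 16274 genes tested), of which 50 fell and 12 rose. A fall was called in 11.8% of all genes and a rise in 14.7%. In irisin mice 59 passed, against 17.4% of all genes, and 43 fell and 16 rose, against 7.93% and 9.47% of all genes. The median log2 difference of the lincRNAs was −0.35 in GFP mice and −0.35 in irisin mice, against 0.00 over all genes tested. Antisense and processed transcripts of at least 1 FPKM, 293 genes of other noncoding classes, had medians of −0.36 and −0.41, and 7037 protein-coding genes of 1 to 10 FPKM had 0.04 and 0.01. Without the 4 libraries rich in B cell, muscle or epididymis transcripts 36 and 62 lincRNAs passed in eWAT of GFP and irisin mice. Without the 12 lincRNAs fixed by their high groups 55 of 168 passed in GFP mice, 49 down and 6 up, and 53 in irisin mice, 42 down and 11 up, with medians of −0.43 and −0.38. In irisin mice 67 passed without irisin HFD 2, 35 without irisin HFD 1, and 30, 31 and 27 without irisin chow 1, 2 and 3.

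**Figure D2:**
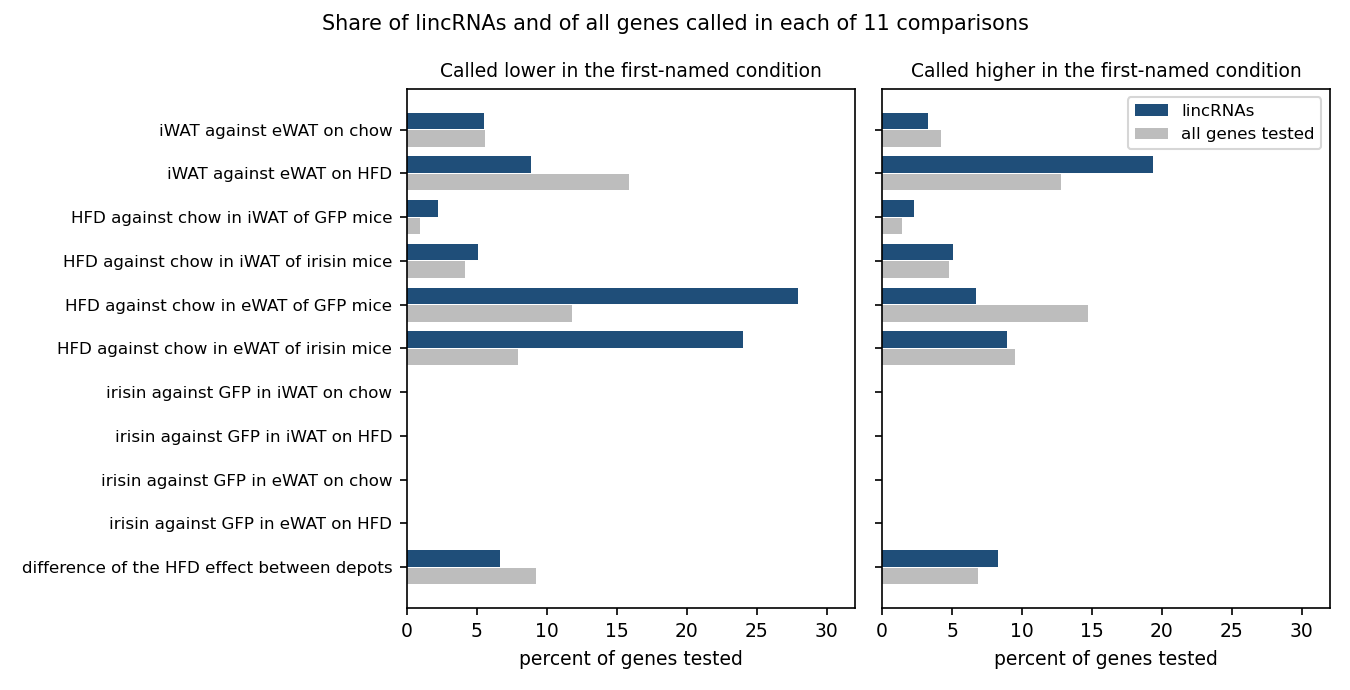
Percent of tested lincRNAs (dark bars) and of all tested genes (grey bars) that passed limma's test in each of 11 comparisons, lower on the left and higher on the right. The dark bars exceed the grey ones most for falls on HFD in eWAT, with 50 of 179 and 43 of 179 lincRNAs, and no bar is drawn for irisin against GFP, where nothing passed.

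The shift was also given for each library. The score of a library was the median over the 181 lincRNAs of the log2 value less the depot median of each lincRNA. In eWAT it ran from 0.0717 to 0.123 in GFP chow libraries, from 0.130 to 0.202 in irisin chow, from −0.210 to −0.128 in GFP HFD and from −0.122 to 0.00461 in irisin HFD libraries, so that all 6 chow libraries lay above all 6 HFD libraries. Protein-coding genes of 1 to 10 FPKM ranged from −0.0263 to 0.0295 over the 12 libraries of eWAT. Antisense and processed transcripts ran from 0.0395 to 0.294 on chow and from −0.256 to −0.00168 on HFD. In iWAT the lincRNA scores of GFP mice ran from 0.0196 to 0.261 on chow and from −0.114 to −0.0685 on HFD, while those of irisin mice overlapped between diets, from −0.0105 to 0.0823 and from −0.1545 to 0.0392. The lincRNAs held 0.366% to 0.566% of gene reads in the chow libraries of eWAT and 0.295% to 0.341% in its HFD libraries. In the same HFD libraries the 5 macrophage markers (Adgre1, Cd68, Csf1r, Itgax, Trem2) summed to 166 to 1011 FPKM, against 83.2 to 109.5 FPKM on chow, and 5 of 5 rose in GFP and 4 of 5 in irisin mice, while 4 of 5 and 1 of 5 adipocyte markers and 4 of 4 and 2 of 4 mesothelium markers fell. None of these markers was at 0 in eWAT on either diet. The part of these cells in the fall of lincRNAs was not tested.

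In iWAT fewer lincRNAs passed. In GFP mice 8 of 178 did (4.49%, against 2.37% of all 16125 genes), 4 up and 4 down (1.44% and 0.924% of all genes). In irisin mice 18 did (10.1%, against 9.01% of all genes), 9 up and 9 down (4.82% and 4.19% of all genes). The medians were −0.32 and −0.19, against 0.00 and −0.02 over all genes. The GFP count rests on single libraries, since it fell to 0 without GFP chow 1 and also without GFP HFD 2, and was 3 without the 4 libraries rich in other tissues. In irisin mice 16 passed without those 4 libraries, 9 without irisin chow 3 and 8 without irisin HFD 3. The medians moved as well, to −0.20 without GFP chow 3, a library with few stromal transcripts (4 markers, 23.1 FPKM, against 180 and 196 in its group), and to −0.10 without irisin HFD 1. Of the markers in iWAT, 4 of 4 Schwann cell genes, 4 of 5 muscle genes and 1 of 4 stromal genes fell on HFD in irisin mice and 1 of 4 Schwann cell genes in GFP mice, while no adipocyte or macrophage marker passed in either. Their part in the lincRNA differences was not tested.

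The diet effects of GFP and irisin mice come from different libraries. In eWAT 37 of 179 lincRNAs (20.7%) were called in both, against 13.2% of all genes tested. This is 59.7% of the GFP and 62.7% of the irisin calls of lincRNAs, against 49.7% and 75.6% for all genes, and all 37 had the same sign, 27 down and 10 up. The sign was shared by 156 of 179 lincRNAs (87.2%), against 78.6% of all genes tested, and Pearson r across lincRNAs was 0.832, against 0.776 across all genes. In iWAT 7 of 178 (3.93%) were called in both, against 1.77% of all genes, which is 87.5% of the GFP and 38.9% of the irisin calls, against 74.6% and 19.6% for all genes. All 7 had the same sign, and 124 of 178 (69.7%) shared the sign, against 68.1% of all genes, with r = 0.707 across lincRNAs and 0.497 across all genes. Genes are not independent replicates, and these values describe the libraries.

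**Figure D3:**
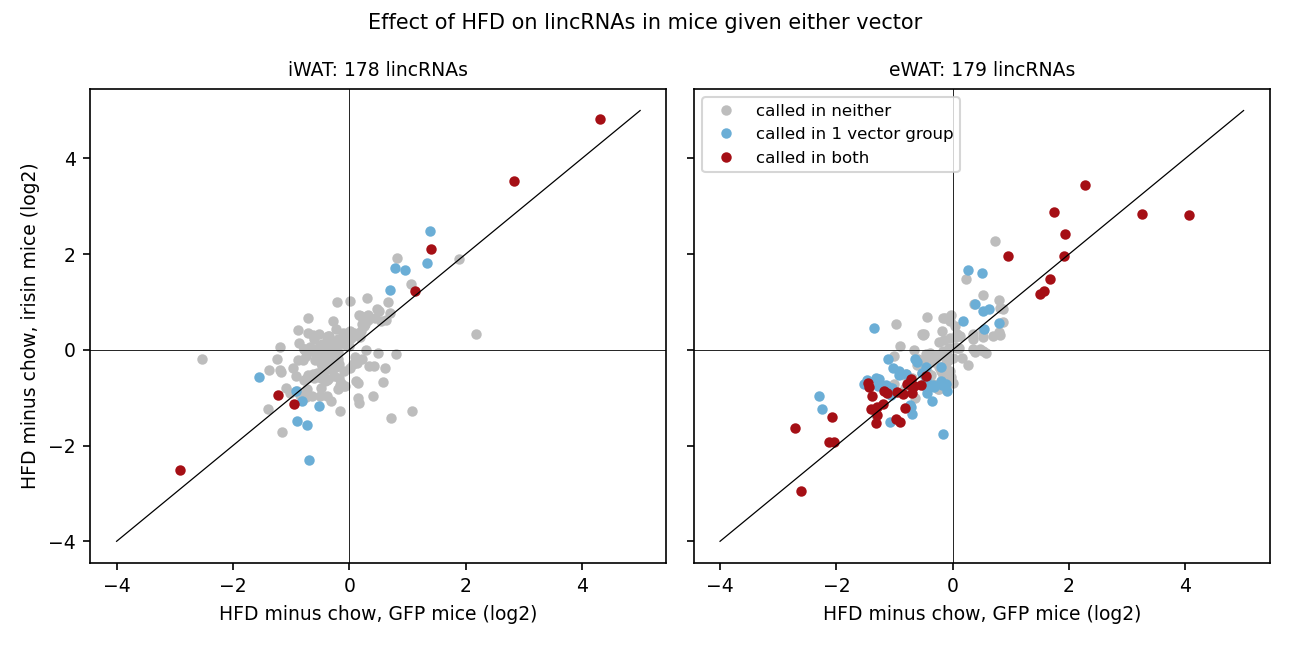
Log2 difference between HFD and chow for each lincRNA in GFP mice (horizontal) and irisin mice (vertical), in iWAT on the left (178 lincRNAs) and eWAT on the right (179). Dark red points passed the test in both vector groups, 7 in iWAT and 37 in eWAT, blue points in 1 of them, and the diagonal marks equal effects.

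In all 4 diet comparisons 3 lincRNAs passed, 1700047G03Rik and Gm5627 upward and Gm48832 downward. That is 1.70% of the 176 tested in both depots, against 0.911% of all 15258 genes tested in both. Gm48832 met the limit of 1 FPKM only through its chow groups, so that its difference by diet was fixed by the choice. Of all 181, 88 passed in none, 47 in 1, 41 in 2 and 2 in 3 (AC114585.1 and C430042M11Rik, both higher on HFD in every comparison). C430042M11Rik had a mean of 1.115 FPKM and a highest group mean 6.015 times its lowest. It may thus have met the limit through its HFD groups. Of the 176, 49.4% passed in none, 26.1% in 1, 21.6% in 2 and 1.14% in 3. Among all genes tested in both depots the shares were 64.4%, 19.8%, 13.2% and 1.69%. The sign was negative in all 4 comparisons for 74 lincRNAs and positive in all 4 for 19, or 42.0% and 10.8% of the 176, against 19.9% and 20.2% of all genes.

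1700047G03Rik (ENSMUSG00000099349, chr15:11964276-11970086, plus strand), a gene of no known function, was at 4.15, 13.9 and 1.71 FPKM on chow, against 72.0, 131 and 121 FPKM on HFD in iWAT of GFP mice. In iWAT of irisin mice it was at 5.93, 2.98 and 1.52 FPKM on chow, against 148, 51.6 and 135 FPKM on HFD. In eWAT it went from 5.66, 26.7 and 6.49 to 50.2, 61.0 and 42.1 FPKM in GFP mice and from 10.3, 8.93 and 3.84 to 78.0, 117 and 61.1 FPKM in irisin mice. All 12 HFD libraries were above all 12 chow libraries, although 1 chow library of eWAT, GFP chow 2, stood higher than the rest. The rises in log2 units were 4.31 ± 0.65 and 4.83 ± 0.65 in iWAT and 2.28 ± 0.53 and 3.44 ± 0.53 in eWAT, in GFP and irisin mice (limma, adjusted p = 0.0122, 0.00433, 0.00997 and 0.0032). The iWAT call in GFP mice was lost without GFP chow 1 (4.22, adjusted p = 0.0634) or GFP HFD 2 (4.15, adjusted p = 0.0584), and the eWAT call in GFP mice without the 4 libraries rich in other tissues (2.02, adjusted p = 0.0575). The most alike genes were the pseudogene Gm9696 (r = 0.978), Mest (0.974), an imprinted gene known to rise with fat expansion, and Paqr9 (0.971). Its nearest protein-coding gene, Sub1, lies 11253 bases away on the other strand, with r = 0.762.

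Gm5627 (ENSMUSG00000093812, chr9:102739648-102756685), whose promoter is printed above, followed the same pattern. It was at 4.13, 18.4 and 9.88 FPKM on chow, against 51.3, 81.9 and 74.9 FPKM on HFD in iWAT of GFP mice, and at 3.05, 13.1 and 7.13 FPKM on chow, against 23.0, 33.9 and 16.4 FPKM on HFD in eWAT of GFP mice. In irisin mice it went from 11.2, 2.75 and 4.96 to 86.4, 52.7 and 67.1 FPKM in iWAT and from 9.28, 4.12 and 1.73 to 27.98, 55.5 and 24.6 FPKM in eWAT. Within each depot and vector the diets did not overlap. The log2 rises were 2.82 ± 0.52 and 3.52 ± 0.52 in iWAT and 1.74 ± 0.58 and 2.88 ± 0.58 in eWAT (limma, adjusted p = 0.0228, 0.00536, 0.0490 and 0.0101). The eWAT call in GFP mice was lost when any of 5 of the 6 libraries was left out, for example at 1.23 and adjusted p = 0.148 without GFP chow 1, and the iWAT call in GFP mice without GFP chow 1 (2.29, adjusted p = 0.0950) or GFP HFD 2 (2.69, adjusted p = 0.0917). Gm5627 was most like Ephb2 (r = 0.973), Crtac1 (0.959) and Prelp (0.957), of which Ephb2 is an ephrin receptor and Prelp a matrix proteoglycan.

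Gm48832 (ENSMUSG00000111840, chr9:85332352-85348065) fell on HFD in both depots. In iWAT of GFP mice its chow libraries held 9.88, 2.56 and 4.14 FPKM, against 0.0149, 0.170 and 0.514 FPKM on HFD, and in eWAT 3.14, 1.56 and 3.86 against 0.196, 0.410 and 0.229 FPKM. In irisin mice the chow libraries were at 2.43 to 7.14 FPKM in iWAT and 1.93 to 2.48 FPKM in eWAT, and the HFD libraries at 0.195 to 0.701 and 0.0186 to 0.630 FPKM. No HFD library reached the lowest chow library. The log2 falls were 2.91 ± 0.47, 2.52 ± 0.47, 2.05 ± 0.33 and 1.93 ± 0.33 (SE), in the order iWAT GFP, iWAT irisin, eWAT GFP, eWAT irisin. No HFD library passed 0.701 FPKM, so that Gm48832 met the limit of 1 FPKM only through its chow libraries. Its diet differences were thus fixed by the choice and carry no test. In each iWAT comparison 2 of 6 left-out libraries ended the call counted above. These were GFP chow 1, GFP HFD 2, irisin chow 2 and irisin HFD 3. Tent5a, the nearest protein-coding gene, lies 5004 bases away on the same strand, with r = 0.534.

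**Figure D4:**
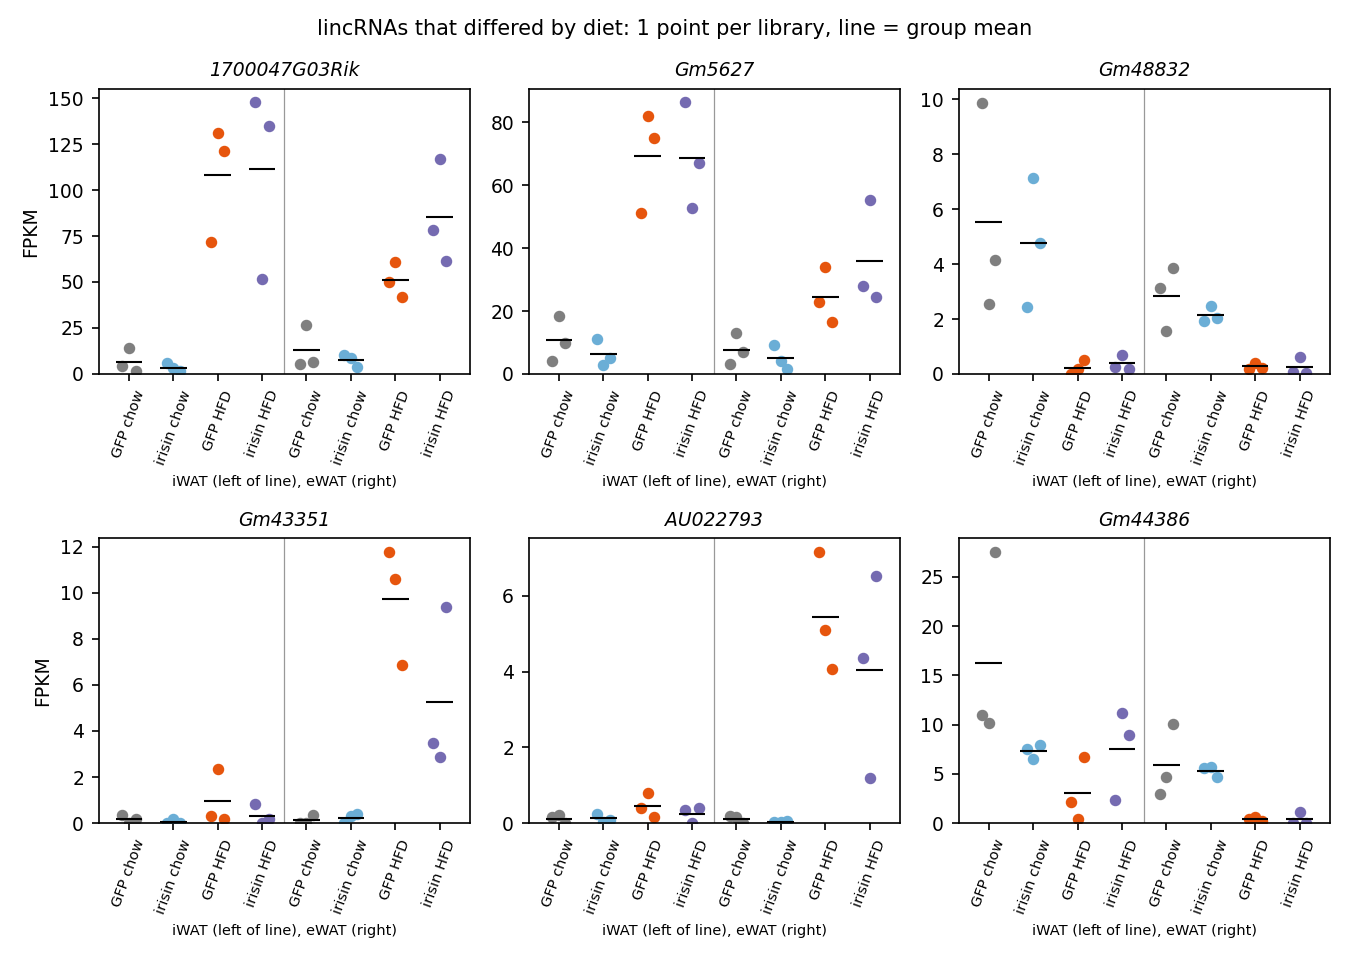
FPKM of 6 lincRNAs in each library (points) with the group mean (line), iWAT left and eWAT right of the vertical line, coloured by vector and diet. 1700047G03Rik and Gm5627 are high and Gm48832 low on HFD in both depots, Gm43351 and AU022793 are high in HFD libraries of eWAT, and Gm44386 is lowest there.

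A further set was high on HFD in eWAT. Gm43351 and AU022793 are among the 12 lincRNAs that entered the list through the groups where they are high, here the HFD groups of eWAT, so that their differences were fixed by the choice and carry no test. Gm43351 (ENSMUSG00000105769, chr3:130874073-130876824) was at 0, 0 and 0.367 FPKM on chow, against 11.8, 10.6 and 6.86 FPKM on HFD in eWAT of GFP mice, and at 0, 0.331 and 0.395 FPKM on chow, against 3.495, 2.87 and 9.39 FPKM on HFD in irisin mice. In iWAT it was at most 2.37 FPKM. The eWAT differences were 4.06 ± 0.41 and 2.83 ± 0.41 log2 units (SE). AU022793 (ENSMUSG00000115230, chr15:39962649-39967024) was at 0.192, 0.157 and 0 FPKM on chow, against 7.16, 5.10 and 4.06 FPKM on HFD in eWAT of GFP mice, and at 0.0436, 0.0392 and 0.0468 FPKM on chow, against 4.36, 1.20 and 6.53 FPKM on HFD in irisin mice. Its eWAT differences were 3.25 ± 0.42 and 2.83 ± 0.42 log2 units (SE). No iWAT library passed 0.796 FPKM.

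In eWAT both RNAs varied with macrophage transcripts. In the 12 libraries of eWAT, Pearson r with the mean log2 value of the 5 macrophage markers was 0.992 for AU022793 and 0.965 for Gm43351, as a description over libraries that also share depot and diet, while r with the adipocyte markers was −0.925 and −0.866 and with the mesothelium markers −0.902 and −0.902. In the 12 libraries of iWAT r with the macrophage markers was 0.566 and 0.397. The library with the fewest macrophage transcripts among the HFD libraries of eWAT, irisin HFD 2, also had the least AU022793 (1.20 FPKM) and Gm43351 (2.87 FPKM). AU022793 was most like Gusb (r = 0.985), a lysosomal hydrolase, Rgs1 (0.984), a G protein regulator of leukocytes, and Slc15a3 (0.981), a lysosomal transporter, and Gm43351 was most like Tm4sf19 (0.959), Rhov (0.957) and the antisense gene 4930430E12Rik (0.955). Lrp12, the protein-coding gene 18655 bases from AU022793 on the other strand, rose on HFD, from 3.54 ± 0.784 to 16.2 ± 2.49 FPKM in GFP mice (log2 2.06 ± 0.26, limma, adjusted p = 0.000929) and from 3.31 ± 0.191 to 9.02 ± 3.70 FPKM in irisin mice (1.24 ± 0.26, limma, adjusted p = 0.0115; SD, n = 3). Over the 24 libraries AU022793 and Lrp12 had r = 0.882. The part of macrophage number in these differences was not tested.

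Gm34973 and AI427809 were also high on HFD in eWAT, of which Gm34973 is another of the 12 lincRNAs fixed by their high groups. Gm34973 was at 0.115, 1.39 and 0.732 FPKM on chow, against 2.66, 5.93 and 3.33 FPKM on HFD in GFP mice, and at 0.420, 0.189 and 0.338 against 3.08, 3.39 and 5.24 FPKM in irisin mice (log2 differences of 1.92 ± 0.39 and 2.41 ± 0.39). AI427809 was at 1.002, 0.457 and 0.656 FPKM on chow, against 3.29, 3.38 and 2.05 FPKM on HFD in GFP mice (1.5 ± 0.35, limma, adjusted p = 0.0104) and rose by 1.17 ± 0.35 in irisin mice (adjusted p = 0.0421), where irisin HFD 2 again was lowest at 0.910 FPKM. Within eWAT their r with the macrophage markers was 0.854 and 0.957. Gm33103 also rose in both vector groups, by 1.91 and 1.96 log2 units. Gm5547 and Gm16907, again among the 12, differed by 1.67 and 1.47 and by 1.57 and 1.22. Gm16907 overlaps the span of a protein-coding gene on the other strand, 2010111I01Rik, with r = 0.861, and the sources used here do not state whether counting kept the strand, so that their reads cannot be told apart.

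The largest falls in eWAT of GFP mice were those of Gm40761, Gm44386, 2610016A17Rik, Gm454, Gm32507 and Gm36107, and in irisin mice those of Gm44386, Gm48832, Gm32507, 2310026L22Rik and Gm40761. Gm44386 (chr6:86513891-86516273) was at 2.92, 4.71 and 10.04 FPKM on chow, against 0.426, 0.682 and 0.261 FPKM on HFD in GFP mice, and at 5.59, 5.66 and 4.66 against 0, 1.17 and 0 FPKM in irisin mice. Its log2 falls were 2.61 ± 0.48 and 2.95 ± 0.48 (limma, adjusted p = 0.00363 and 0.00419). In iWAT of GFP mice the difference of −2.53 ± 0.70 missed the threshold (adjusted p = 0.0855). Gm40761 fell from 7.21, 9.07 and 16.1 to 1.11, 1.32 and 0.970 FPKM in GFP mice (2.72 ± 0.43 log2 units, limma, adjusted p = 0.00204). In irisin mice it was at 9.26, 11.99 and 7.16 against 2.83, 5.67 and 1.05 FPKM (1.62 ± 0.43 lower, adjusted p = 0.0279), a call that leaving out any of 5 of the 6 libraries ended, with adjusted p = 0.0566 to 0.0992.

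2610016A17Rik (ENSMUSG00000101089, chr19:25671134-25672253) and Dmrt2, which face away from each other at the promoter printed above, both fell with diet in eWAT of GFP mice. In eWAT 2610016A17Rik was at 28.9, 50.8 and 30.2 FPKM on chow, against 9.32, 6.83 and 4.997 FPKM on HFD in GFP mice, a fall of 2.29 ± 0.42 log2 units (limma, adjusted p = 0.00332), and Dmrt2 fell by 2.09 ± 0.31 (adjusted p = 0.00156), from 50.3 ± 18.4 to 10.98 ± 2.06 FPKM (SD, n = 3). In irisin mice 2610016A17Rik was at 43.6, 37.8 and 31.4 FPKM on chow, against 14.3, 40.8 and 11.3 FPKM on HFD, where irisin HFD 2 lay within the chow range and no call was made (−0.97 ± 0.42, adjusted p = 0.131). Dmrt2 fell there by 1.62 ± 0.31 (limma, adjusted p = 0.00766). In iWAT neither passed the test (0.09 and −0.38 in GFP mice), and over the 24 libraries the pair had r = 0.817. Within eWAT 2610016A17Rik had r = 0.956 with the adipocyte markers.

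Gm454 showed the same library dependence. It was at 30.9, 34.5 and 45.0 FPKM on chow, against 6.08, 7.71 and 8.19 FPKM on HFD in eWAT of GFP mice (2.24 ± 0.59 lower, limma, adjusted p = 0.0180). In irisin mice it was at 37.6, 47.7 and 45.4 against 9.17, 67.9 and 9.17 FPKM, with irisin HFD 2 above every chow library. The GFP call was lost without GFP chow 3 (−2.09, adjusted p = 0.0595), without GFP HFD 1 (−2.12, adjusted p = 0.0639) and without the 4 libraries rich in other tissues (−2.44, adjusted p = 0.0656). Its r with the adipocyte markers in eWAT was 0.985. Over 70.8% of its transcript it is 97.6% identical to the protein-coding gene Nxpe5, so that its level is uncertain, and Nxpe5 rose in eWAT of GFP mice by 1.77 ± 0.30 (limma, adjusted p = 0.00248).

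Hosts of small nucleolar RNAs, genes whose introns carry the small RNAs that guide ribosomal RNA modification, differed with diet in eWAT. Of 15 tested host genes, of lincRNA and other biotypes, 6 fell and 1 rose in eWAT of GFP mice, and 5 fell and none rose in irisin mice, with medians of −0.43 and −0.41. Of all genes tested 11.8% fell and 14.7% rose in GFP mice and 7.93% fell and 9.47% rose in irisin mice, while 72 and 71 of 293 antisense and processed transcripts fell and 17 and 14 rose. Among the lincRNAs, Snhg20 fell by 0.81 ± 0.16 and 1.22 ± 0.16 (limma, adjusted p = 0.00528 and 0.00193) and Snhg18 by 0.71 ± 0.18 and 0.74 ± 0.18 (adjusted p = 0.0159 and 0.0208). Snhg20 was at 10.7, 6.79 and 9.65 FPKM on chow, against 5.34, 4.73 and 4.52 FPKM on HFD in GFP mice, with no overlap. Snhg10 and Epb41l4aos fell in GFP mice by 0.81 ± 0.26 and 0.65 ± 0.19 (adjusted p = 0.0405 and 0.0280), and Snhg12, which spans 5 small nucleolar RNA genes, differed by −0.43 ± 0.17 (adjusted p = 0.0911). In iWAT none of 15 passed in GFP mice and 1, Zfas1, fell in irisin mice. Of 10 paraspeckle proteins, the partners of Neat1, none passed in eWAT of GFP mice and 1, Rbm14, fell in irisin mice, by 0.69 ± 0.16 (limma, adjusted p = 0.0162), against 26.5% and 17.4% of all genes tested.

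Of the 8 lincRNAs that span a microRNA hairpin, E130102H24Rik fell with diet in iWAT of irisin mice, Snhg20 and Snhg10 fell in eWAT as given above, and 6720427I07Rik, which spans the let-7d hairpin, fell in eWAT of irisin mice by 0.74 ± 0.17 (limma, adjusted p = 0.0173). Mir142hg, Mir17hg, Gm27028 and 2900076A07Rik passed in no diet comparison. Mir142hg was at 1.11 to 62.4 FPKM over the libraries and passed in no comparison. Its highest values were 62.4 FPKM in iWAT GFP HFD 1 and 22.3 FPKM in eWAT irisin HFD 3, then 21.6 FPKM in eWAT GFP chow 1, and both GFP libraries among these are the ones rich in B cell transcripts. Within iWAT its r with the B cell markers was 0.847. Gm19951 was at 20.7 FPKM in iWAT GFP HFD 1 and at most 1.39 FPKM in the other 23 libraries, and Lsmem2 at 15.7 FPKM there and at most 3.08 FPKM elsewhere, so that their mean of 1 FPKM rests on that library. Mir17hg ranged from 0.299 to 2.53 FPKM and passed in no comparison. E130102H24Rik, the miR-101a host, fell in iWAT of irisin mice from 7.85, 5.18 and 10.8 to 3.72, 4.57 and 2.25 FPKM (1.06 ± 0.27, limma, adjusted p = 0.0361), a call that 4 of 6 left-out libraries ended, for example irisin chow 3 (−0.83, adjusted p = 0.123). It was also lost with the replicate block (adjusted p = 0.0525), with voom (−1.19, adjusted p = 0.0516), and without the 4 libraries rich in other tissues (−0.83, adjusted p = 0.0995).

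In iWAT, besides the lincRNAs named for both depots, Gm26532 and Gm28875 fell in both vector groups, by 1.22 and 0.94 and by 0.95 and 1.14 log2 units. The Gm26532 calls were lost in 2 of 6 and 3 of 6 fits that left out a library. The Gm28875 calls were lost in 5 of 6 and 1 of 6, and in GFP mice also with voom (−0.99, adjusted p = 0.0574) and without the 4 libraries (−1.11, adjusted p = 0.05105). Gm28875 was at 15.3, 11.04 and 11.1 FPKM on chow, against 7.83, 4.23 and 6.94 FPKM on HFD in GFP mice, and at 14.3, 14.9 and 16.9 against 6.97, 5.61 and 7.69 FPKM in irisin mice. Gm30557, 63968 bases from Ret, the receptor of glial cell line-derived ligands, rose in irisin mice from 0.590, 0.873 and 0.362 to 2.79, 2.15 and 5.91 FPKM (1.81 ± 0.37, limma, adjusted p = 0.0171). Ret rose by 2.56 ± 0.30 in the same comparison (adjusted p = 0.00256), and the pair had r = 0.867 over the 24 libraries. The Gm30557 call was lost without irisin chow 1, irisin chow 3 or irisin HFD 3 (adjusted p = 0.0520, 0.0695 and 0.0725). Prr33 fell in iWAT of irisin mice from 10.6, 10.6 and 20.8 to 4.18, 1.66 and 1.69 FPKM (2.30 ± 0.46, limma, adjusted p = 0.0155). It overlaps Tnnt3, a muscle troponin gene, and its highest library is irisin chow 3, in which the muscle markers summed to 3234 FPKM. Without that library the difference was −1.99 (limma, adjusted p = 0.0656). Prr33 was lower on HFD in all 4 diet comparisons and passed in 2 of them, the second in eWAT.

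Depot set apart fewer lincRNAs on chow than on HFD, as it did among all genes, and on both diets the shares were near those of all genes. With both vectors averaged, 16 of 181 (8.84%) differed between iWAT and eWAT on chow, against 9.82% of all 17687 genes, 6 higher and 10 lower in iWAT (4.22% and 5.59% of all genes). On HFD 51 (28.2%) differed, against 28.7% of all genes, 35 higher and 16 lower (12.8% and 15.9% of all genes). Without the 4 libraries rich in other tissues the counts were 20 and 56, and without the 12 lincRNAs fixed by their high groups 15 and 43. On both diets 10 were called, 62.5% of the chow calls and 19.6% of the HFD calls, and 7 of them had the same sign. Mesothelium markers were almost absent from iWAT (4 markers, at most 3.60 FPKM, against 17.1 to 334 in eWAT), and 4 of 4 were lower in iWAT on either diet. Wt1 was at 0 in every library of 3 of the 4 iWAT groups. On chow 4 of 4 Schwann cell markers and 4 of 5 muscle markers were higher in iWAT. On HFD 5 of 5 macrophage markers were lower in iWAT, with sums of 36.4 to 144 FPKM against 166 to 1011 in eWAT, and 4 of 5 adipocyte markers were higher. The part of these cells in the depot differences was not tested.

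**Figure D5:**
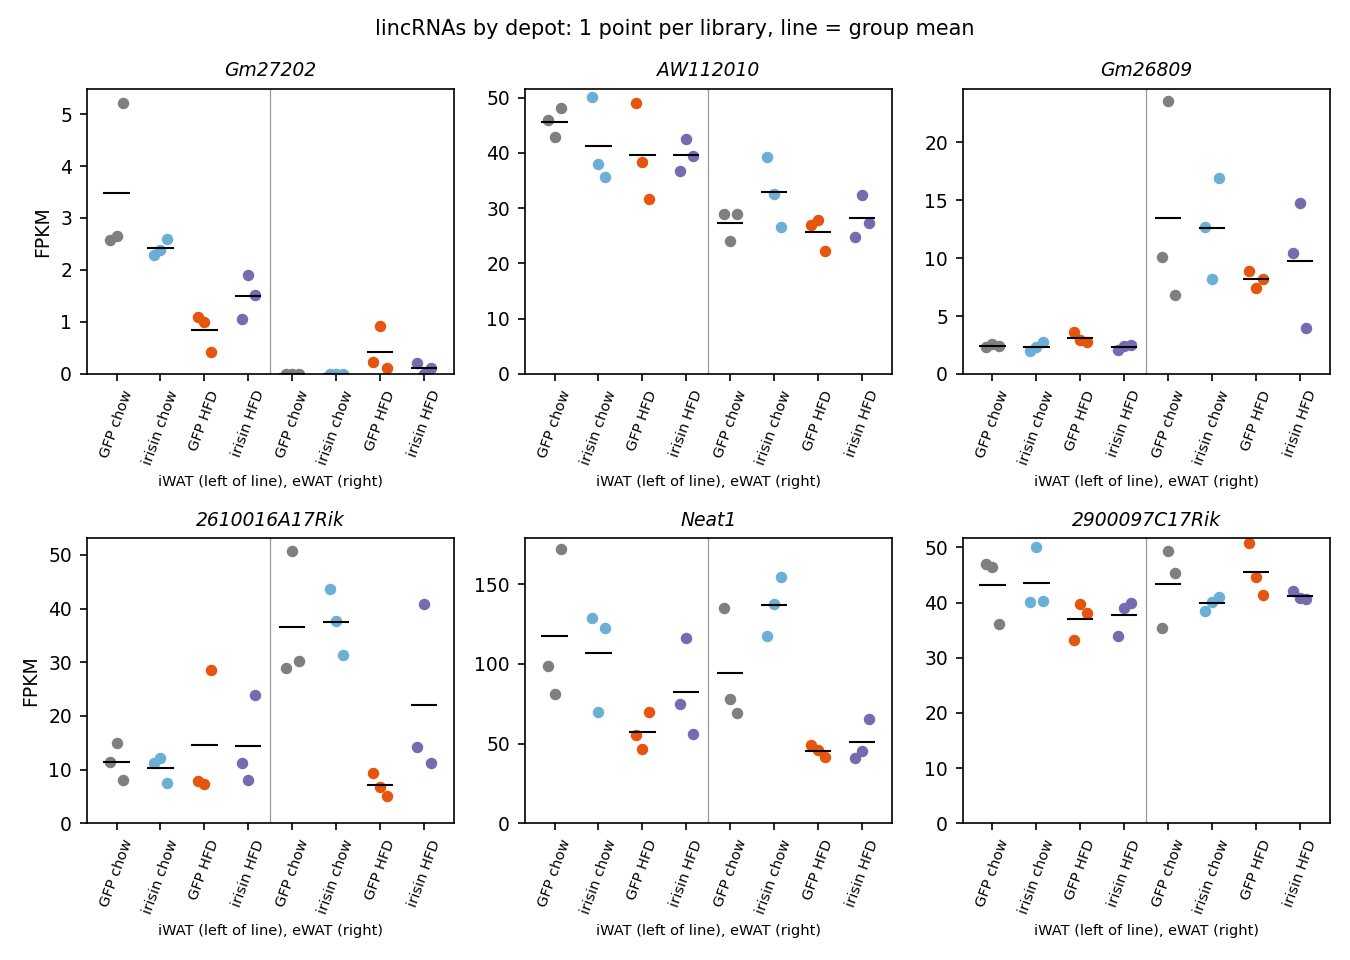
FPKM of 6 lincRNAs in each library (points) with the group mean (line), iWAT left and eWAT right of the vertical line, coloured by vector and diet. Gm27202 is at 0 in all 6 chow libraries of eWAT, AW112010 has higher group means in iWAT, Gm26809 is higher in eWAT, 2610016A17Rik and Neat1 are lower on HFD in eWAT, and 2900097C17Rik lies between 33.2 and 50.8 FPKM throughout.

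Gm27202 (ENSMUSG00000098424, chr4:154645083-154645701) is another of the 12 lincRNAs that entered the list through the groups where they are high, here iWAT, and its differences carry no test. It was at 2.57, 2.66 and 5.22 FPKM in GFP and 2.28, 2.38 and 2.59 FPKM in irisin mice on chow in iWAT, and listed at 0 in all 6 chow libraries of eWAT, so that no fold is given. On HFD it was at 1.09, 1.01 and 0.416 and at 1.06, 1.90 and 1.52 FPKM in iWAT and at 0 to 0.914 FPKM in eWAT. In iWAT of GFP mice it differed by −1.55 ± 0.29 log2 units between HFD and chow. The gene lies 8210 bases from Prdm16, a regulator of brown and beige fat, on the same strand. Prdm16 was higher in iWAT by 1.20 ± 0.14 on chow and 1.27 ± 0.14 on HFD (limma, adjusted p = 6.097e-06 and 4.236e-06), and the pair had r = 0.786 over the 24 libraries. With diet in iWAT of GFP mice Prdm16 differed by 0.14 ± 0.21 (limma, adjusted p = 0.755), against −1.55 for Gm27202, and its HFD effect differed by 0.07 between the depots, against −1.59.

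AW112010 (ENSMUSG00000075010, chr19:11047617-11050566), an RNA known from immune cells that encodes a small protein from an unusual start codon, was at 35.6 to 50.2 FPKM in the 6 chow libraries of iWAT and 24.2 to 39.4 FPKM in those of eWAT. The difference was 0.53 ± 0.12 on chow and 0.54 ± 0.12 on HFD (limma, adjusted p = 0.00571 and 0.00205), and diet and vector made no called difference. Lncbate1, known for its role in brown adipocytes, was at 9.73, 8.38 and 13.4 and at 6.68, 6.68 and 6.07 FPKM in iWAT on chow, and at 2.36, 4.17 and 2.80 and at 3.84, 3.59 and 3.81 FPKM in eWAT. All 6 iWAT libraries were above the 6 eWAT libraries, by 1.16 ± 0.29 log2 units (limma, adjusted p = 0.0128), and on HFD, where the depots overlapped, by 0.95 ± 0.29 (adjusted p = 0.0202). Gm33699 was higher in iWAT by 1.21 ± 0.27 on chow and 1.56 ± 0.27 on HFD. Its mean was 1.245 FPKM and its highest group mean 12.2 times its lowest. It may thus have met the limit of 1 FPKM through its iWAT groups, and its differences are given with no test. It stays in the counts.

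Higher in eWAT were Gm26809 and Gm26917. Gm26809 (chr6:18844220-18847360) was at 1.96 to 2.80 FPKM in the chow libraries of iWAT and 6.84 to 23.5 FPKM in those of eWAT, a log2 difference of −2.11 ± 0.27 (limma, adjusted p = 1.687e-05), and on HFD the difference was −1.48 ± 0.27 (adjusted p = 0.000431), again without overlap of the depots. Gm26917 (chr17:39843013-39846341), with a mean of 55.9 FPKM, was at 22.4 to 46.6 FPKM in iWAT on chow and 139, 50.4 and 66.5 FPKM in GFP and 235, 102 and 130 FPKM in irisin mice in eWAT. Its depot differences were −1.72 ± 0.28 on chow and −0.87 ± 0.28 on HFD (limma, adjusted p = 0.00027 and 0.0243). Of the 10 called on both diets, Gm15498, Gm28875 and Gm35665 had opposite signs on the 2 diets, as in Gm15498, which was lower in iWAT by 1.04 on chow and higher by 0.56 on HFD.

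The HFD effect itself differed between the depots for 27 of 181 lincRNAs (14.9%, against 16.1% of all genes), more positive in iWAT for 15 and in eWAT for 12 (6.86% and 9.23% of all genes). It differed for 37 without the 4 libraries rich in other tissues, 39 without eWAT irisin HFD 2, and 20 without the 12 lincRNAs fixed by their high groups, of which 15 lay on the iWAT side and 5 on the eWAT side. By library, the count was 18 without iWAT GFP chow 1 or iWAT GFP HFD 3 and 40 without iWAT GFP HFD 1. Gm43351, AU022793, AI427809 and Gm34973 had the largest differences on the eWAT side, −2.81, −2.64, −1.87 and −1.63 log2 units for iWAT minus eWAT, of which AI427809 alone is not among the 12. On the iWAT side 2610016A17Rik led with 1.85 ± 0.49 (limma, adjusted p = 0.0156), and Dmrt2 had 1.69 ± 0.34 (adjusted p = 0.0024). In the same contrast 5 of 5 macrophage markers lay on the eWAT side and 4 of 5 adipocyte markers on the iWAT side, and their part in the 27 was not tested. These contrasts share their libraries with the diet comparisons above.

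Irisin against GFP gave no call among the lincRNAs. In the 4 comparisons, iWAT on chow, iWAT on HFD, eWAT on chow and eWAT on HFD, limma called 0 of 178, 0 of 178, 0 of 179 and 0 of 179 lincRNAs and 0% of all genes tested, and voom on the recovered reads also called 0 lincRNAs in each. At an unadjusted p under 0.05 there were 7, 1, 20 and 22 lincRNAs, against 4.27%, 2.67%, 5.19% and 9.28% of all genes tested. The lowest adjusted p of a lincRNA was 0.845, 0.946, 0.696 and 0.533. Groups did not overlap, with irisin higher, for 3, 4, 18 and 21 lincRNAs (background 8.22%, 3.21%, 5.63% and 6.66% of genes) and, with irisin lower, for 16, 2, 4 and 5 (8.12%, 3.13%, 4.38% and 6.76%). The medians were −0.11, 0.07, 0.06 and 0.13, against −0.01, 0.00, 0.00 and −0.01 over all genes. These comparisons share their libraries with the diet comparisons, and with 3 against 3 libraries an exact permutation test could not give a p under 0.1.

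The lincRNAs with the smallest p missed the threshold after adjustment. In eWAT on HFD, C430042M11Rik was at 1.51, 1.23 and 1.11 FPKM in GFP and 2.50, 1.82 and 2.68 FPKM in irisin mice (0.66 ± 0.17, limma, adjusted p = 0.533), and B930092H01Rik had means of 1.12 and 2.65 FPKM (0.92 ± 0.24, adjusted p = 0.533). In eWAT on chow, 2310026L22Rik had means of 0.784 FPKM in GFP and 2.76 FPKM in irisin mice (1.45 ± 0.34, limma, adjusted p = 0.696), and on HFD both vectors were low, at 0.580 and 0.485 FPKM. In iWAT on chow, Gm34907 was lower with irisin by 0.72 ± 0.17 (adjusted p = 0.845), and on HFD 2810414N06Rik was higher by 0.60 ± 0.25 (adjusted p = 0.946). 2610016A17Rik in eWAT on HFD, at 7.05 ± 2.17 in GFP and 22.1 ± 16.2 FPKM in irisin mice (SD, n = 3), differed by 1.40 ± 0.42 (adjusted p = 0.533), and irisin HFD 2 held the highest value, 40.8 FPKM.

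By position, 176 of the 181 had the same place and strand in GENCODE M21 (GRCm38). A protein-coding gene lay within 1000 bases of 63 and within 5000 bases of 90, 23 overlapped the span of one, and 28 started within 1000 bases of a gene that runs the other way. Over the 24 libraries the correlation with the nearest protein-coding gene had a median of 0.226 for the 147 lincRNAs where both were expressed, 0.150 for the 28 divergent pairs and 0.226 for the other 119, and it was over 0.7 for 19, among them the pairs with Lrp12, Ret, Dmrt2 and Prdm16. These points share libraries, depot and diet, and are given as a description. Gm47675 with F13a1, coagulation factor XIII A of macrophages, had r = 0.874. Exons of 44 overlapped an exon of another gene, and 15 had at least 50% of their longest transcript in a stretch at least 95% identical to another gene, such as Gm10076 (99.7% covered by the ribosomal protein gene Rpl41) and Gm454, so that their levels are uncertain.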

How the data were processed

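RNA of 24 fat libraries was selected on poly-T beads and sequenced, per the labels' protocols. The authors aligned reads with HISAT2 2.0.5 and counted them with featureCounts 1.5.0-p3, per the submitters' processing notes, and deposited 1 table of FPKM per gene, per the file headers. The genome build and the strand setting are not given in the sources used here. Because poly-T selection takes transcripts with a poly(A) tail, lincRNAs without one are under-represented. The 8 columns of group means in the table were not used, and no 2 libraries were identical. The members and lists were chosen with earlier results of these data known.

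FPKM values were tested as log2(FPKM + 0.5) with limma 3.58.1 (moderated variances that follow the mean, R 4.3.3). A gene was tested if at least 3 of the libraries fitted reached 0.5 FPKM. Diet and vector were tested within a depot (12 libraries, 4 groups), and depot and its difference by diet over 24 libraries. P-values were adjusted over all genes tested by Benjamini and Hochberg, and a call is an adjusted p under 0.05. Fold changes on this scale understate those of low genes. On simulated data with 200 changed genes, 48% of 2-fold and 89% of 4-fold changes were recovered for the diet effect in GFP mice in iWAT (15672 genes), 65% and 95% in eWAT (15765 genes) and 82% and 97% for depot on chow (16852 genes), and 8.67%, 6.43% and 6.28% of calls were false. The changed genes were drawn from those whose mean log2(FPKM + 0.5) was above 1. The recovery therefore does not cover lower genes, which include part of the lincRNAs. Whole reads were recovered from the FPKM steps (tolerance 0.01 of a step) for limma's voom as an alternative. Other alternatives were the pseudocount, the filter, upper quartile scaling, the replicate number as a block, the 2 compared groups fitted alone, and leaving out each library or the 4 libraries rich in other tissues. Counts without the 12 lincRNAs that reached 1 FPKM in only 1 to 3 groups were added after the data were seen. Figures were drawn with matplotlib 3.10.9. Copies were searched with blastn 2.17.0 against GENCODE M21 transcripts.

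Genes named are the 10 most abundant lincRNAs, up to 8 called lincRNAs with the largest change in each direction of a comparison (the 2 of lowest p in comparisons without a call), fixed role lists, the lincRNAs at the limit of the rule, the nearest protein-coding genes and the 3 genes most like Malat1, Neat1 and 4 further lincRNAs. One gene that this rule names is not reported here. Gm47675, Gm10076, Gm19951, Lsmem2 and Gm29650 were named after their values were seen.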

Additional observations from a re-analysis of the deposited data

Results flagged for a closer look

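The effect of HFD differed between the depots, by the test of that difference over both vectors (iWAT effect minus eWAT effect in log2 units ± SE; limma, adjusted p over all genes tested, 6 libraries for each depot and diet), for these named lincRNAs. It was more positive in eWAT for Gm43351 (−2.81 ± 0.49), AU022793 (−2.64 ± 0.38) and AI427809 (−1.87 ± 0.33, adjusted p = 0.00109), which were high on HFD in eWAT. The difference had the same sign for Gm34973 (−1.63 ± 0.36) and Gm13373 (−1.58 ± 0.42). Gm36161 (−1.30 ± 0.41, adjusted p = 0.0375) and Gm28875 (−1.29 ± 0.26, adjusted p = 0.00275) lay on that side too. For Gm27202 the value was −1.59 ± 0.29, which depends on the pseudocount, since it was listed at 0 in all chow libraries of eWAT. Gm43351, AU022793, Gm34973, Gm13373 and Gm27202 entered the list through the groups where they are high, so that no p is given for them.

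The effect was more positive in iWAT for 2610016A17Rik (1.85 ± 0.49, adjusted p = 0.0156), Gm15498 (1.59 ± 0.27, adjusted p = 0.000805) and Gm30173 (1.56 ± 0.35, adjusted p = 0.00552). Gm35665 (1.40 ± 0.30, adjusted p = 0.00424), Gm40761 (1.26 ± 0.40, adjusted p = 0.0385) and 1810044D09Rik (1.18 ± 0.33, adjusted p = 0.0212) followed, and then Gm9951 (1.17 ± 0.23, adjusted p = 0.00254) and AC114585.1 (1.08 ± 0.30, adjusted p = 0.0181). The calls of Gm40761 and of Gm36161 were each lost for 15 of the 24 libraries left out in turn, and that of Gm36161 also without the 4 libraries rich in other tissues (−1.44, adjusted p = 0.0555).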

How the results depend on the processing

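Counts of lincRNAs called kept within 1.5 times of the reported ones in all 11 comparisons with a pseudocount of 0.1 or 1 FPKM, a filter of 1 FPKM, upper quartile scaling, voom and the replicate block. For diet in iWAT of GFP mice the count was 8, and it was 3 with no filter, 0 with only the groups compared and 3 without the 4 libraries rich in other tissues. In iWAT of irisin mice it went from 18 to 29 with only the groups compared. In eWAT of GFP mice it went from 62 to 36 without the 4 libraries, and in eWAT of irisin mice from 59 to 35 with no filter and 33 with only the groups compared. Leaving out each library in turn gave 0 to 12 and 8 to 20 lincRNAs in iWAT and 43 to 61 and 27 to 67 in eWAT, for GFP and irisin mice. It gave 13 to 20 for depot on chow, 36 to 61 for depot on HFD, 18 to 40 for the difference of the HFD effect between depots and 0 in each vector comparison. Without the 12 lincRNAs at 1 FPKM in only 1 to 3 groups, a setting added after the data were seen, the counts were 7, 18, 55 and 53 for diet, 15 and 43 for depot, 20 for the difference between depots and 0 for vector. The lowest counts came without iWAT GFP chow 1, iWAT irisin HFD 3, eWAT GFP HFD 1 and eWAT irisin chow 3 in the diet comparisons, and without iWAT GFP chow 1 or iWAT GFP HFD 3 for the difference between depots, whose highest count came without iWAT GFP HFD 1. The cause was not tested. A mean of at least 0.5 FPKM would have given 362 lincRNAs, one of at least 2 FPKM 90, and a median of at least 1 FPKM 156.

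No named result changed its direction. Named results that lost their call numbered 15 with no filter, 13 with only the groups compared, 2 with a pseudocount of 0.1 FPKM, 2 with upper quartile scaling, 4 with voom, 16 without the 4 libraries and 127 in the fits that left out 1 library. The median difference of the lincRNAs between HFD and chow stayed below 0, from −0.39 to −0.20 and −0.27 to −0.10 in iWAT and from −0.47 to −0.27 and −0.44 to −0.28 in eWAT, in settings added after the data were seen. With the replicate number as a block 18 and 51 lincRNAs were called for depot on chow and on HFD, 9, 18, 61 and 57 for diet, 28 for the difference between depots and 0 for vector, and 5 named results lost their call. These were partly other lincRNAs. The block kept 12 of the 16 calls for depot on chow and 47 of 51 on HFD. It kept 8 of 8, 16 of 18, 59 of 62 and 51 of 59 for diet, and 21 of 27 for the difference between depots. Deviations of same-numbered libraries correlated over 0.1 in 2 of 12 pairs across depots, 9 of 18 within iWAT and 2 of 18 within eWAT, and those of differently numbered libraries in 6 of 24, 10 of 36 and 5 of 36. The medians were 0.0137 across depots, 0.0913 within iWAT and 0.0185 within eWAT for same-numbered pairs. For differently numbered pairs they were −0.00703, −0.0535 and 0.00362. The labels do not say what a number marks, and since not every pair exceeded 0.1 the numbers were not used as pairs. With 3 libraries a group this check cannot show that pairing is absent. LincRNAs of 1 to 2 FPKM rest on few reads, which limits what could be detected for them.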
